A study of Homo sapiens with 6 samples.

Results

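The 10 genes described here form the core of NF-κB (nuclear factor-kappa B) signaling, namely its 5 subunits, 2 of its inhibitors and the 3 proteins of the IκB kinase (IKK) complex. They were chosen by gene symbol, and each of the 10 symbols matched 1 of the 58735 rows of the count table. Their mRNA was measured by RNA-seq in RD, an established embryonal rhabdomyosarcoma (ERMS) cell line, in 3 samples transduced with lentivirus carrying a scrambled shRNA and 3 transduced with lentivirus carrying a TAK1 shRNA. TAK1, encoded by MAP3K7, is a kinase upstream of the IKK complex, and the comparison asks which transcripts differ when it is silenced. Cells carrying 1 of the TAK1 shRNA sequences were profiled, per the study's own text, so an effect of TAK1 loss and an effect of that construct cannot be told apart.

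In resting cells, dimers of the subunits are held in the cytoplasm by IκB proteins. The canonical kinase IKKβ, encoded by IKBKB, works with IKKα, encoded by CHUK, and the scaffold NEMO, encoded by IKBKG. Once activated by TAK1, the complex phosphorylates IκB, which is then ubiquitinated and destroyed, and the dimers enter the nucleus. In the noncanonical branch, NIK (MAP3K14) and IKKα drive processing of the NFKB2 product p100 to p52, which pairs with RelB. Several genes of the pathway are themselves NF-κB targets. In rhabdomyosarcoma the pathway has been linked to proliferation and to the block in muscle differentiation. The counts report transcript amounts and say nothing of phosphorylation, nuclear entry or protein.

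Because NF-κB dimers bind a 10-base κB site, the promoter windows of the members were searched for the κB consensus on both strands. Each window ran from 250 bases before to 50 bases after the RefSeq start site (GRCh38.p14), and 8 of the 10 members had one. The consensus was present in 3 of these 8 windows. It was present in 10.8% of all 27305 windows of the same length and in 13.2% of those of tested genes. They are shown because they are the members whose own promoter holds the letters of the site, and are written 5′ to 3′ on the strand of the gene, with the match in capitals.
NFKB1: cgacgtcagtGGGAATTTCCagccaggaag
REL: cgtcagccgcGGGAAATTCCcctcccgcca
NFKBIA: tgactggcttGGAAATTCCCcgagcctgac
The NFKB1 match begins 49 bases before the start site (chr4:102501300-102501329 for the stretch shown, plus strand). In REL it begins 47 bases before the start (chr2:60881517-60881546, plus strand), and a second match on the other strand overlaps it, shifted by 1 base. In NFKBIA it begins 81 bases before the start (chr14:35404811-35404840, minus strand). The windows of NFKB2, RELA, NFKBIB, CHUK and IKBKG did not hold these letters. The RELA window (chr11:65663808-65664107, minus strand) lies wholly upstream of the GENCODE gene, which starts at 65663090. The IKBKG window (chrX:154547370-154547669, plus strand) lies inside the GENCODE gene, which starts at 154541199. For RELA and IKBKG the sequence around the GENCODE gene start was therefore not searched. A match is a run of letters and not evidence of binding.

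Total counts were between 28839898 and 34469323 per sample, and 15935 genes passed edgeR's expression filter, including all 10 members, whose raw counts ran from 92 to 3146. Expression is given as CPM, counts divided by the TMM-adjusted library size and scaled up to a common total. To be called higher or lower, a gene needed an adjusted p below 0.05 together with a log2 fold change of 0.25 or more in either direction. Adjusted p-values are those of the edgeR quasi-likelihood fit to all genes, and each fold change is given with its standard error (SE). MAP3K7 fell in all TAK1 shRNA samples, with 77.3 ± 0.743 CPM in control and 31.3 ± 2.00 CPM in knockdown samples (SD, n = 3). Of 8 skeletal muscle lineage markers, 7 were expressed and MYF5 had 0 counts, and their summed level was 2280 to 2310 CPM in control and 2200 to 2340 CPM in knockdown samples. Of these 7, MYOD1 (0.37) and MYOG (0.27), genes of myogenic transcription factors, were called higher and CHRNA1 (-0.40), a muscle acetylcholine receptor gene, lower on the log2 scale, and 5 passed the adjusted p. Their part in the changes below was not tested. Of the 7 hematopoietic markers 0 passed the filter, with a summed level of 0.292 to 0.794 CPM in control and 0.333 to 0.684 CPM in knockdown samples, and 4 endothelial and 5 epithelial markers each summed to at most 0.453 CPM. Fewer cells of a kind and less RNA per cell cannot be told apart in such bulk samples.

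In TAK1 knockdown RD cells, 5 of the 10 members were lower and 0 were higher. These were the subunit genes RELB, NFKB1 and NFKB2 and the kinase genes CHUK and IKBKB. Of all genes tested, 23.1% were called, with 11.8% higher and 11.3% lower. The control and knockdown values did not overlap for the same 5 members, and for 43.9% of all genes. Without the fold threshold, 6 members passed the adjusted p, all lower, beside 33.3% of all genes (16.1% higher and 17.2% lower). The median log2 fold change of the members was -0.29, beside 0.018 for all genes tested. Of the 10 values 8 were negative, beside 7565 of 15935 over all genes tested. RELB had the largest change of the 10, and the inhibitor genes NFKBIA and NFKBIB had the 2 smallest. These members were chosen with earlier results of these data known, and their counts are a description of the list.

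**Figure D1:**
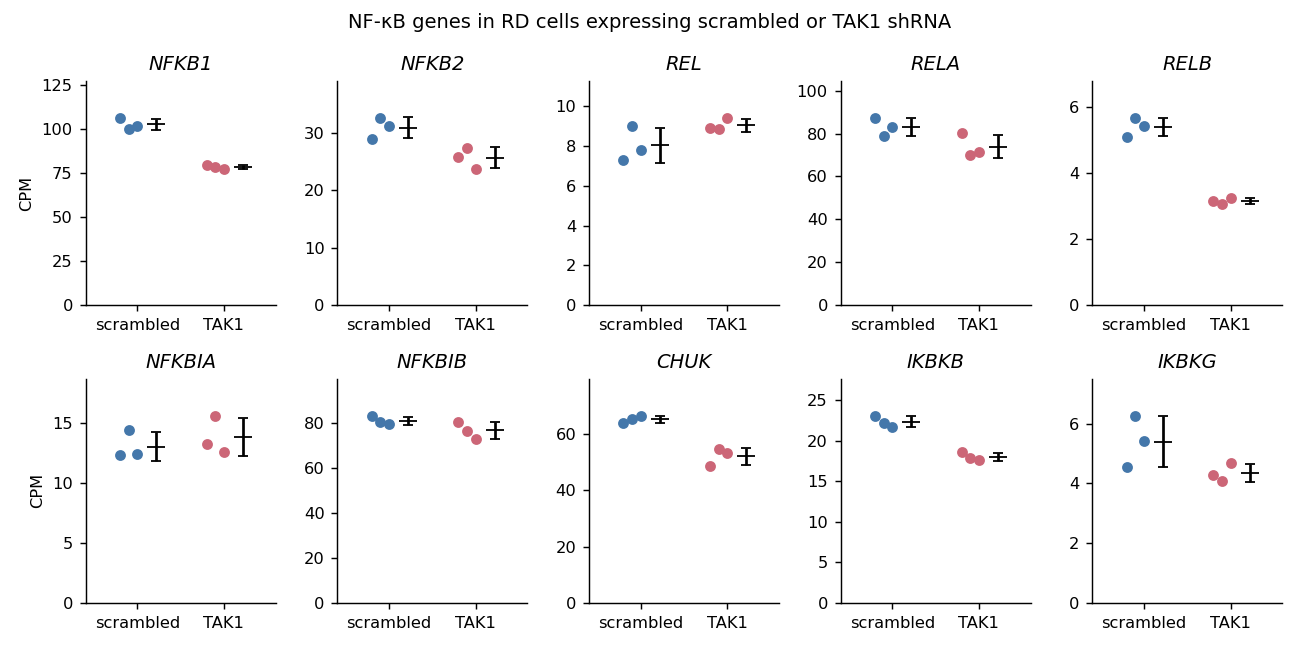
Expression in CPM of the 10 NF-κB genes in the 3 scrambled and 3 TAK1 shRNA samples, 1 point per sample, with the mean and SD as bars and each axis starting at 0. The control and knockdown points of NFKB1, NFKB2, RELB, CHUK and IKBKB do not overlap, and those of REL, RELA, NFKBIA, NFKBIB and IKBKG do.

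Among the subunits, NFKB1 (ENSG00000109320.14, chromosome 4, 102501330 to 102617302, plus strand in GRCh38, as for all genes here) encodes p105, the precursor of p50. Control cells had 105.9, 99.9 and 101.6 CPM, against 79.7, 78.1 and 77.2 CPM after TAK1 knockdown. Every knockdown sample was below every control sample. The means were 102 ± 3.11 and 78.3 ± 1.28 CPM (SD, n = 3), so that the transcript fell by 23.6% (log2 fold change -0.39, SE 0.051, edgeR adjusted p = 1.43e-06).

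NFKB2 (ENSG00000077150.21, chromosome 10, 102394110 to 102402524, plus strand), the gene of p100 and p52, had 28.9, 32.4 and 31.2 CPM in control cells. In TAK1 shRNA cells it had 25.8, 27.4 and 23.7 CPM. The groups did not overlap, although the lowest control and the highest knockdown sample were close. At -0.27 (SE 0.076, edgeR adjusted p = 0.00754) the change lay just past the fold threshold. This call was lost without replicate 2 of the control samples (-0.23, adjusted p = 0.0623), and with knockdown replicate 3 left out, or with scaling by library size alone, the value of -0.22 was too small to be called.

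RELB (ENSG00000104856.15, chromosome 19, 45001461 to 45038192, plus strand) encodes the partner of p52 in the noncanonical branch. Its levels were low, at 5.10, 5.65 and 5.42 CPM in control cells and 3.15, 3.06 and 3.24 CPM in TAK1 shRNA cells. The knockdown samples lay close together and all below the controls. RELB fell by 41.6% (log2 fold change -0.78, SE 0.15, edgeR adjusted p = 0.000258). With each sample left out in turn it stayed between -0.81 and -0.74.

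RELA, which encodes p65, the main transactivating subunit of the canonical branch, had 87.1, 78.8 and 83.0 CPM in control cells and 80.1, 70.0 and 71.6 CPM in TAK1 shRNA cells. Replicate 1 of the knockdown samples was above replicate 2 of the controls, so that the groups overlapped. Its log2 fold change was -0.17 (95% interval -0.29 to -0.047, edgeR adjusted p = 0.0297), under the fold threshold. The adjusted p was 0.153 without replicate 1 and 0.083 without replicate 3 of the controls. It was 0.114 and 0.0825 without replicates 2 and 3 of the knockdown samples. In the other direction, it was 0.0334 without replicate 2 of the controls. Without replicate 1 of the knockdown samples it was 0.00201, at a log2 fold change of -0.23. With scaling by library size alone the adjusted p was 0.118.

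REL encodes c-Rel, best known from lymphoid cells. It was at 7.31, 8.99 and 7.78 CPM in control cells and at 8.89, 8.83 and 9.39 CPM in TAK1 shRNA cells. Replicate 2 of the controls fell among the knockdown values. A log2 fold change of 0.17 did not pass the test (95% interval -0.067 to 0.41, edgeR adjusted p = 0.28), and it was 0.11 without replicate 1 and 0.26 without replicate 2 of the controls. Of its exon bases, 33.3% also belong to a long noncoding RNA on the same strand in GENCODE 44.

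The inhibitors showed no change that passed the test. NFKBIA encodes IκBα, the classical feedback inhibitor. It was at 12.3, 14.4 and 12.4 CPM in control cells and at 13.3, 15.6 and 12.6 CPM in TAK1 shRNA cells, and the ranges of the groups overlapped. This was a log2 fold change of 0.085 (95% interval -0.13 to 0.30, edgeR adjusted p = 0.573). Without replicate 2 of the knockdown samples, its highest sample, the value was -0.014.

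NFKBIB, the gene of IκBβ, had 83.3, 80.8 and 79.8 CPM in control cells and 80.8, 76.8 and 73.3 CPM in TAK1 shRNA cells. The highest knockdown sample was within the control range. On the log2 scale the change was -0.079 (95% interval -0.19 to 0.032, edgeR adjusted p = 0.281). The intervals of both inhibitors include 0 and reach down to -0.19 and up to 0.30 on the log2 scale.

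Within the kinase complex, CHUK (ENSG00000213341.11, chromosome 10, 100188300 to 100229596, minus strand) was at 63.8, 65.5 and 66.3 CPM in control cells and at 48.7, 54.5 and 53.1 CPM in TAK1 shRNA cells. The groups were separated by more than the spread within either of them. CHUK, at 65.2 ± 1.27 and 52.1 ± 3.01 CPM on average (SD, n = 3), changed by -0.32 on the log2 scale (SE 0.059, edgeR adjusted p = 0.000122). IKBKB (ENSG00000104365.16, chromosome 8, 42271302 to 42332460, plus strand) had 23.1, 22.3 and 21.7 CPM in control cells and 18.6, 17.9 and 17.7 CPM in knockdown cells. Here too the groups did not overlap, and the change was -0.31 (SE 0.078, edgeR adjusted p = 0.00321).

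IKBKG, the gene of the scaffold NEMO on chromosome X, was at 4.54, 6.26 and 5.42 CPM in control cells and at 4.27, 4.08 and 4.70 CPM in TAK1 shRNA cells. Replicate 1 of the controls lay within the knockdown range and the other 2 above it. Its log2 fold change of -0.32 was close to that of CHUK but had an SE of 0.15 and did not pass the test (95% interval -0.63 to -0.0038, edgeR adjusted p = 0.115). Without replicate 1 of the controls it reached -0.43 (adjusted p = 0.04998), and without replicate 2 of the controls it was -0.20 (adjusted p = 0.451). The near-identical pseudogene IKBKGP1 held 1 to 12 counts per sample, and how reads matching both were counted is not given in the sources used here, so the level of IKBKG is uncertain. Exons of RELA, NFKBIB, CHUK and IKBKG overlap an antisense gene over 1.12% to 6.3% of their bases, and without strand information those reads cannot be told apart.

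**Figure D2:**
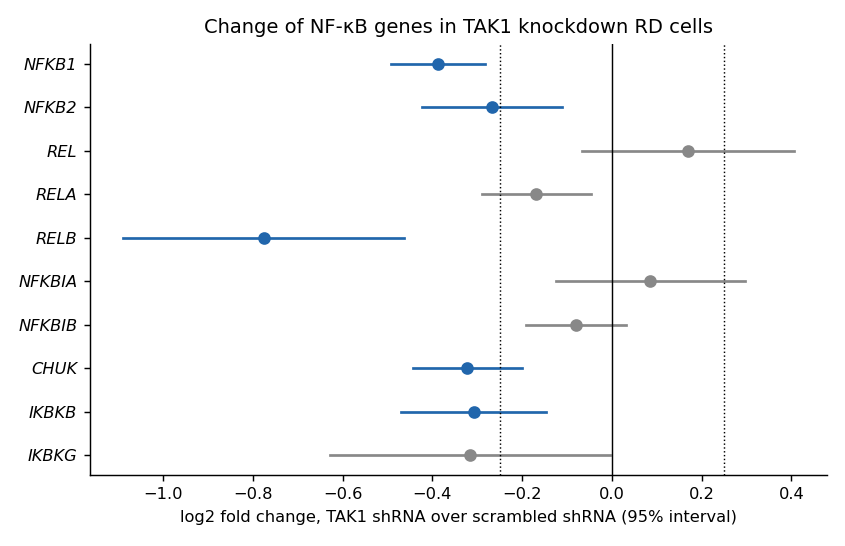
Log2 fold change of each member in TAK1 shRNA over scrambled shRNA samples (points) with its 95% interval (lines), with dotted lines at the fold threshold of 0.25 in either direction. The 5 genes called lower are in blue, from RELB at -0.78 to NFKB2 at -0.27, and the intervals of REL, NFKBIA and NFKBIB include 0.

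Levels of different genes were compared as CPM per kilobase of annotated exon. In control cells NFKBIB was the highest, at 35.0 ± 0.769 CPM per kilobase (SD, n = 3), followed by RELA at 15.2 ± 0.755, CHUK at 9.45 ± 0.184 and NFKB1 at 6.54 ± 0.198. NFKB2 was at 5.52 ± 0.325 CPM per kilobase and NFKBIA at 3.85 ± 0.349. At the low end were IKBKB at 2.02 ± 0.061, RELB at 1.80 ± 0.092, IKBKG at 0.996 ± 0.158 and REL at 0.469 ± 0.050 CPM per kilobase. The ranges of all neighbors in this order were separate in control cells. In TAK1 shRNA cells the order was the same, but the ranges of NFKB2 (mean 4.59 CPM per kilobase) and NFKBIA (mean 4.08) overlapped. Per kilobase of the longest or the MANE Select transcript, lengths tried after the data were seen, NFKB1 ranked above CHUK in both groups, and IKBKG ranked above RELB in TAK1 shRNA cells. With the MANE Select length IKBKG was also above RELB in control cells, and NFKBIA was above NFKB2 in TAK1 shRNA cells. NFKBIB and RELA stayed at the top and REL at the bottom with all 3 lengths.

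**Figure D3:**
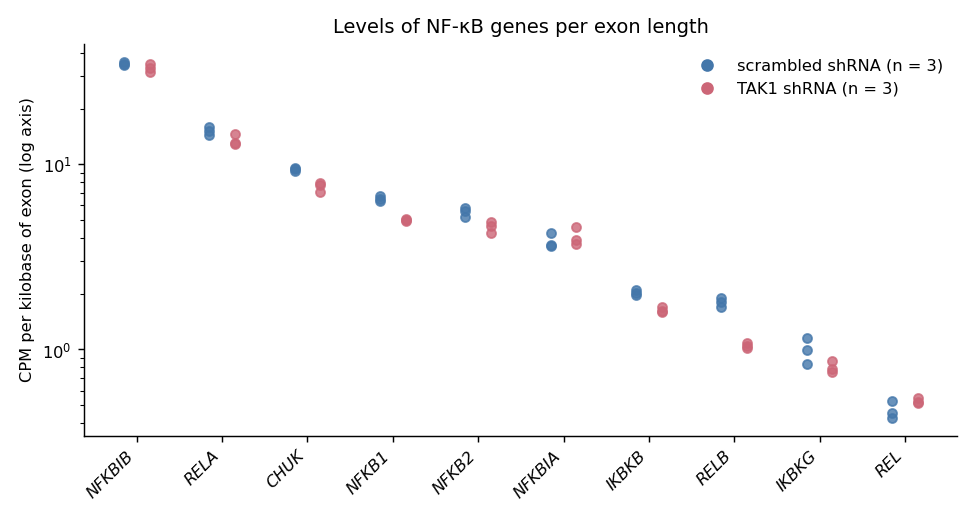
CPM per kilobase of exon for each member on a log axis, 1 point per sample, in control (blue) and TAK1 shRNA (red) cells, ordered by the control mean. NFKBIB and RELA lie at 12.8 CPM per kilobase or more in every sample, and REL at 0.548 or less.

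As a share of the summed level of the 5 subunits per kilobase, RELA made up 51.5 ± 1.71% in control cells and 54.8 ± 1.83% in TAK1 shRNA cells (SD, n = 3). RELB went from 6.09 ± 0.413% to 4.26 ± 0.243%, and NFKB1 from 22.1 ± 0.329% to 20.2 ± 0.563%. The share of REL was 1.59 ± 0.197% and 2.14 ± 0.147%, and that of NFKB2 was 18.7 ± 1.40% and 18.6 ± 1.41%. These shares hold for annotated exon length only. With the MANE Select length, control means were 32.97 CPM per kilobase for RELA and 25.27 for NFKB1, which puts NFKB1 closer to RELA.

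Ratios within a sample do not depend on how libraries are scaled, and 3 were compared between the groups. The log2 ratio of the summed inhibitors NFKBIA and NFKBIB to the summed subunits was 0.39, 0.43 and 0.36 in the control samples and 0.58, 0.63 and 0.56 in the TAK1 shRNA samples. The groups did not overlap, and the difference of the means was 0.20 in favor of the inhibitors in TAK1 shRNA cells (two-sided exact permutation p = 0.1, the smallest that 3 against 3 allows, adjusted p = 0.3 over the 3 ratios). NFKBIB makes up most of the inhibitor sum. The values given are for annotated exon length, and the level of each ratio depends on that choice. With the longest transcript, control means were 36.95 CPM per kilobase for NFKBIB and 5.095 for NFKBIA. Those of RELA, NFKB1, NFKB2, RELB and REL were 26.07, 14.56, 9.039, 2.387 and 0.7133, so the subunit sum was then the larger. The log2 ratio of NFKB2 to NFKB1 was -0.24 ± 0.13 in control and -0.13 ± 0.096 in TAK1 shRNA cells (exact permutation p = 0.4, adjusted p = 0.6). That of CHUK to IKBKB was 2.22 ± 0.072 and 2.21 ± 0.12 (exact permutation p = 0.8, adjusted p = 0.8). In both of these the groups overlapped.

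**Figure D4:**
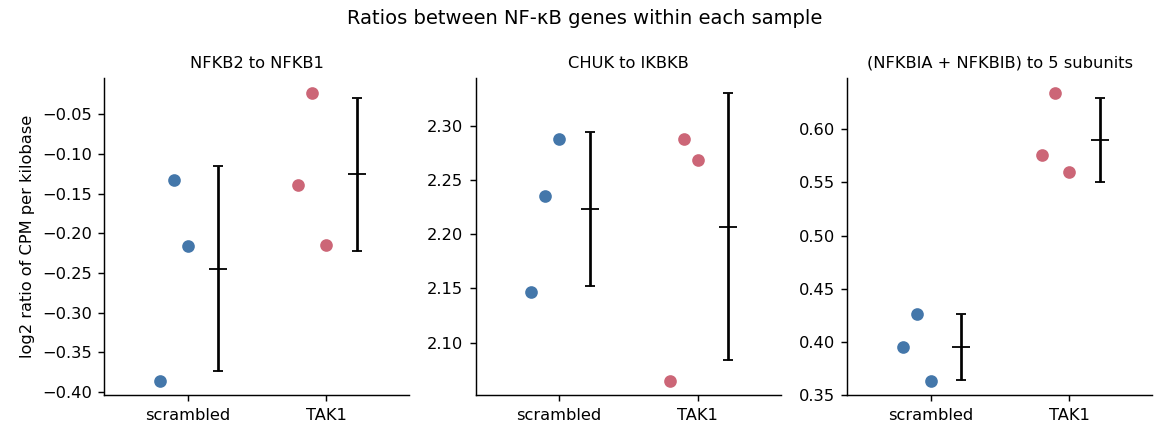
Log2 ratio of CPM per kilobase of annotated exon within each sample for 3 pairs of genes or gene sums. Bars give the mean and SD, and each panel has its own vertical scale. The inhibitor to subunit ratio lies between 0.36 and 0.43 in the control and between 0.56 and 0.63 in the TAK1 shRNA samples, whereas the other ratios overlap between the groups.

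The rest of the pathway was examined through 5 lists holding 100 further genes, of which 80 were tested. Of these 80 genes, 18, including the silenced MAP3K7, were lower and 7 higher, or 31.2% called beside 23.1% of all genes tested (11.3% lower and 11.8% higher). Some genes stand in 2 lists and are counted under both below. Their median log2 fold change was -0.095.

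Upstream of the IKK complex, 18 of 24 receptors and adaptors were tested, and 5 were lower and 1 higher, or 33.3% beside 23.1% of all genes. TNFRSF1A, which encodes the main tumor necrosis factor receptor, was at 148, 137 and 140 CPM in control cells and 91.3, 87.5 and 86.4 CPM in TAK1 shRNA cells. The groups were far apart, and the change was -0.68 on the log2 scale (SE 0.050, edgeR adjusted p = 1.2e-10). TNFRSF12A (Fn14), the receptor of the cytokine TWEAK, went from 27.5 ± 2.25 down to 15.7 ± 3.23 CPM, or -0.81 on the log2 scale. IL1RAP, the coreceptor for interleukin-1, changed by -0.81 as well, from 11.5 ± 0.281 to 6.53 ± 0.886 CPM. The adaptor MYD88 changed by -0.30. LTBR, the lymphotoxin beta receptor and the last of the 5, named after its values were seen, was at -0.26. LTBR missed the fold threshold when replicate 1 (-0.24) or 2 (-0.22) of the controls or replicate 3 of the knockdown samples (-0.21) was left out, and with upper-quartile normalization (-0.24) or library size alone (-0.21). In the opposite direction, TRAF3, which holds the noncanonical kinase NIK in check, rose from 55.2 ± 1.37 to 67.2 ± 2.24 CPM, a log2 fold change of 0.28 (adjusted p = 0.000299).

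Among the IKK-related and upstream kinases with their scaffolds, 14 of 15 were tested, with 5 lower, including MAP3K7 itself, and 1 higher, or 42.9% beside 23.1% of all genes. TBK1, an IKK-related kinase of the interferon response, was at 34.3, 34.1 and 31.9 CPM in control cells and at 23.5, 25.9 and 23.7 CPM in TAK1 shRNA cells (log2 fold change -0.46, SE 0.072, edgeR adjusted p = 1.98e-05). AZI2, 1 of its scaffolds, was at 0.021 and did not pass the test (edgeR adjusted p = 0.849). The other scaffolds were called, TANK at -0.29 (-0.24 without replicate 1 of the knockdown samples) and TBKBP1 at 0.58 (adjusted p = 0.00138 and 1.37e-07). IRAK4, a kinase of the interleukin-1 and Toll-like receptor pathway, changed by -0.37 (adjusted p = 0.0123), a call lost without replicate 3 of the controls (-0.34, adjusted p = 0.0594). The fifth gene was MAP3K3 at -0.28, named after its values were seen, which was not called without control replicate 1 (-0.24), without knockdown replicate 3 (-0.24) or with library size alone (-0.23). MAP3K14, the gene of NIK, was at 0.0018 (SE 0.12, edgeR adjusted p = 0.993).

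Of the 7 genes for other IκB proteins and the IκB-binding κB-Ras proteins, all were tested, and 3 were higher and 0 lower at the same test, or 42.9% called beside 23.1% of all genes (11.8% higher). An adjusted p under 0.05 was reached by the same 3. NFKBIL1, an IκB-like gene, rose from 10.3 ± 0.039 to 13.2 ± 1.44 CPM on average, or 0.35 on the log2 scale (edgeR adjusted p = 0.0093). Of its exon bases 11.5%, and of those of NKIRAS2 8.66%, overlap a gene on the other strand. BCL3, a nuclear IκB protein that binds p50 and p52 dimers, was at 19.7, 16.8 and 16.0 CPM in control cells and at 21.9, 20.6 and 21.1 CPM in TAK1 shRNA cells. Its log2 fold change was 0.28 (adjusted p = 0.0151), and the call was lost without replicate 2 (0.25) or replicate 3 (0.22) of the controls. NKIRAS2, a κB-Ras gene, was at 0.26 (adjusted p = 0.000871), close enough to the fold threshold to miss it without replicate 1 of the controls (0.246) or without replicates 1 (0.22) or 3 (0.24) of the knockdown samples. NFKBIE, NFKBIZ and NFKBID had log2 fold changes of -0.17, -0.13 and 0.015 that did not pass the test. The κB-Ras gene NKIRAS1, named after its values were seen, was at 0.21, the list median, and did not pass (edgeR adjusted p = 0.159).

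The machinery that ubiquitinates and destroys IκB, with the deubiquitinases that oppose the pathway, gave 2 lower genes and 1 higher among 17, a share of 17.6% beside 23.1% of all genes. UBE2N (Ubc13), which builds the K63-linked ubiquitin chains that activate TAK1, had a log2 fold change of -0.39 (adjusted p = 5.66e-07). Of its exon bases, 41.6% overlap NUDT4 on the other strand. NUDT4 held 3801 to 4293 counts in control and 2376 to 2978 counts in TAK1 shRNA samples. Without strand information, reads from the overlap cannot be told apart, so the change of UBE2N is uncertain. BTRC, which recognizes phosphorylated IκB, was at -0.27, or at -0.24 and no longer called when knockdown replicate 2 was left out. UBE2V1, the partner of UBE2N, was listed at only 1.92 ± 0.136 CPM in control cells and rose by 0.66 on the log2 scale, but 43.2% of its exon bases are shared with a read-through gene that was listed at 0 counts, so this level is uncertain. The deubiquitinase genes TNFAIP3 (A20) and CYLD were at -0.30 and 0.052 and did not pass (adjusted p = 0.259 and 0.69).

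**Figure D5:**
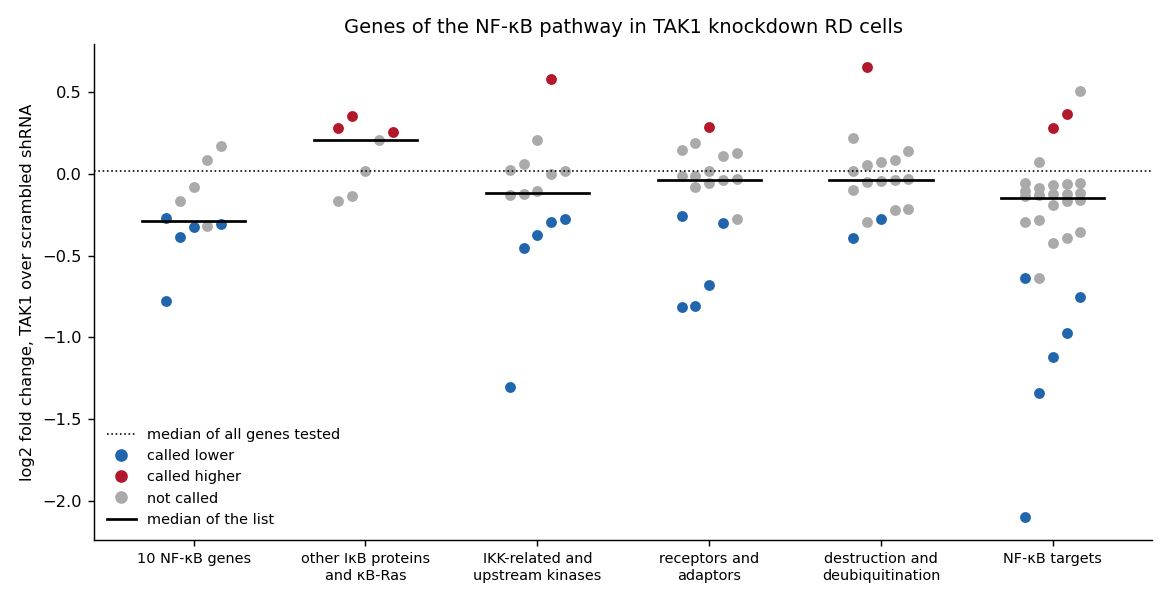
Log2 fold change, TAK1 shRNA over scrambled shRNA, of every tested gene in the 10 members and the 5 pathway lists, with bars at each list's median and a dotted line at the median of all genes tested. Genes called lower are blue and genes called higher are red. The median is highest for the other IκB and κB-Ras proteins (0.21, the value of NKIRAS1) and lowest for the members (-0.29).

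Well-known NF-κB target genes were the last list, with 44 genes, of which 30 were tested. Of these, 14 did not pass the expression filter, among them some cytokine genes. IL6 reached at most 5 counts in any sample, TNF 2, IL1B 2 and CXCL8 11, so a change in them was not detectable at this depth. Of the 30 tested genes 6 were lower and 2 higher, a share of 26.7% beside 23.1% of all genes tested. The log2 fold change was negative for 26 of the 30, beside 7565 of 15935 genes tested, with a median of -0.15 in the list. Some of the 26 were near the floor, at control means of 0.55 to 0.88 CPM with SEs of 0.38 to 0.50. These did not pass the test, and the sign of their change is uncertain. CCL2, a monocyte chemokine, fell from 22.3 ± 1.44 to 5.23 ± 0.622 CPM (log2 fold change -2.10, SE 0.11, edgeR adjusted p = 1.2e-13). PLAU, the gene of urokinase, fell from 326 ± 9.79 to 129 ± 5.05 CPM (log2 fold change -1.34, SE 0.047, edgeR adjusted p = 3.61e-16), and 31.0% of its exon bases overlap C10orf55, which held at most 38 counts. The chemokine gene CCL5 and the activation marker CD83 were at -1.12 and -0.98, both under 3 CPM in the control samples, and CD83 lost its call without replicate 3 of the controls (-0.81, adjusted p = 0.0529). SDC4 and LIF completed the 6, at -0.64 and -0.75, named after their values were seen. LIF lost its call without replicate 2 of the controls (-0.67, edgeR adjusted p = 0.0693) or replicate 1 of the knockdown samples (-0.61, adjusted p = 0.0606), which left 5 lower targets. TNFAIP2 rose by 0.36 on the log2 scale (adjusted p = 0.00376), and BCL3 was the other target that was higher. SOD2, at 247 ± 3.48 CPM in control cells the second most abundant of the tested targets, had a log2 fold change of -0.062 (adjusted p = 0.328).

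Among the genes taken from the 5 lists for the size of their change, MAP3K7 included, 17 had a promoter window and 3 of these (17.6%) held the κB consensus, beside 13.2% of the windows of all tested genes. CCL2, CCL5, TNFRSF12A and BTRC had no window and were not searched. The 3 matches are shown because their transcripts did not move in 1 direction.
TANK: atttctcagtGGAAGTTCCCacttcaacat
TRAF3: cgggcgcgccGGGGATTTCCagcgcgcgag
BCL3: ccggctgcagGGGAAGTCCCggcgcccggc
The stretches lie at chr2:161136907-161136936, chr14:102777406-102777435 and chr19:44748700-44748729 in GRCh38.p14, all on the plus strand. The BCL3 match begins 2 bases after the start site. TANK was lower and TRAF3 and BCL3 were higher, while among the members with a match NFKB1 was lower and REL and NFKBIA did not pass the test.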

How the data were processed

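Poly(A)-enriched RNA from RD cells (3 scrambled shRNA and 3 TAK1 shRNA samples) was sequenced. Base calling used CASAVA, reads with adaptors or poor quality were removed, STAR aligned the rest to GRCh38, and the authors deposited raw counts per gene symbol. The counter, annotation release and strand setting are not given in the sources used here. The labels do not say whether samples came from separate cultures, so the spread between samples behind the p-values may be technical. The fit shares this spread partly across genes, with 24.2 degrees of freedom in total for each member.

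Counts were filtered (filterByExpr), TMM-normalized and fitted by quasi-likelihood in edgeR 4.0.16 under R 4.3.3, over 15935 genes with Benjamini-Hochberg adjustment. The SE is the log2 fold change over the square root of F, and 95% intervals use the t distribution. DESeq2 1.42.0, limma 3.58.1 (voom), fits leaving out each sample or adding a replicate block, 2 more fold thresholds, 2 more filters and 3 more normalizations were alternatives. The common biological coefficient of variation was 5.67%, and replicates differed by more than sampling noise (chi-square per degree of freedom from 2.86 to 8.67). The fits were tested on simulated counts. Exon lengths, overlaps and gene IDs came from GENCODE 44 and promoter windows from RefSeq. Of 2 SOD2 rows, the one with the higher counts was used.

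The members and lists were chosen with earlier results of these data known. The genes named are the members, MAP3K7 and, from each list, up to 4 called genes with the largest rise and up to 4 with the largest fall. All others (LTBR, MAP3K3, MAP3K14, AZI2, NFKBIE, NFKBIZ, NFKBID, NKIRAS1, TNFAIP3, CYLD, IL6, TNF, IL1B, CXCL8, SDC4, LIF, SOD2, RBCK1, RNF31, SHARPIN, OTULIN, and the muscle markers MYOD1, MYOG and CHRNA1) were chosen after their values were seen.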

Additional observations from a re-analysis of the deposited data

How the results depend on the processing

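Of the 10 members, 5 were lower in TAK1 shRNA cells under DESeq2, limma-voom, both other filters, the replicate block and the DESeq2 and upper-quartile normalizations, and 4 with library size alone, where NFKB2 fell under the fold threshold. With each sample left out in turn, 4 to 6 members were lower. At a fold threshold of 0.5 only RELB, 1 member, was called. The counts then fell to 1 lower kinase, 3 lower receptors or adaptors and 0 lower destruction genes. Among the other IκB and κB-Ras proteins, the receptors and the targets, 0 genes were higher. With no fold threshold, 2 receptors or adaptors and 2 destruction genes were higher and 4 destruction genes were lower. With library size alone, 2 destruction genes were higher and 1 lower, and 2 kinases were higher and 3 lower. Leaving out 1 sample gave 1 to 2 higher and 1 to 3 lower destruction genes and 1 to 2 higher targets. NFKBIA lay between -0.014 and 0.16 with 1 sample left out and turned negative without replicate 2 of the knockdown samples. Over all genes, library size alone made 62.9% of calls upward, against 51.0%, and the threshold of 0.5 left 735 higher and 680 lower genes of 1879 and 1805, while no fold threshold gave 2569 and 2734.

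Same-numbered samples deviated together only weakly (correlations of 0.037, 0.0364 and 0.0165), and the numbers were not taken to pair the samples. For each knockdown sample, the control of the same number still had the highest correlation of the controls. The fit with the replicate block called 5 members lower and 0 higher, and 1942 higher and 1848 lower genes overall. With the block, the SE went from 0.059 to 0.047 for RELA and from 0.152 to 0.155 for RELB. Replicate 3 of the controls correlated slightly better with knockdown replicate 2 (0.019) than with its own number. Depth limits RELB, IKBKG and REL most, at 92 to 312 counts per sample.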

Other observations

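Of the 1428 tested genes with the κB consensus in the promoter window, 14.0% were called higher and 12.4% lower, and of the 9399 without it 12.0% were higher and 13.1% lower. The median log2 fold change was 0.0018 with and 0.0045 without a match. Windows with a match had a median GC content of 68.7% and those without 65.0%. In the list of NF-κB targets, 18 of 37 windows held a match, or 48.6%, beside 13.2% of the windows of tested genes. The other lists had 2 of 6 for the other IκB and κB-Ras proteins and 3 of 13 for the kinases. Receptors and adaptors had 2 of 20 and destruction genes 1 of 14.

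The linear ubiquitin chain assembly genes, which modify NEMO, were at log2 fold changes of 0.13 for RBCK1, 0.14 for RNF31 and 0.19 for SHARPIN, and SHARPIN alone had an adjusted p under 0.05 (0.0368 by edgeR), under the fold threshold. OTULIN, which removes these chains, was at -0.22 (edgeR adjusted p = 0.015), also under the fold threshold. These genes were chosen after their values were seen.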
